A study of Mus musculus with 12 samples.

Results

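The genes described here are those of the sorting gate of brain microglia and a group of surface or secreted genes of the microglia signature. They were taken from the count table by symbol, and 10 of its 23337 genes are members: Tmem119, Itgam and Ptprc for the gate, and Olfml3, Sparc, Slc2a5, Cd81, Selplg, Ltc4s and Gpr34 for the signature. All 10 were found and all 10 passed the filter on low counts, which left 12217 genes to test. RNA was sequenced from 12 libraries, 3 each from cerebellum, striatum, hippocampus and cortex of male wild type C57BL/6N mice at postnatal day 60. Each library came from 3000 cells sorted as TMEM119+, CD45 low and CD11b+ out of tissue pooled from 3 to 5 mice, and no group carried an engineered allele or a treatment. Whether the 3 pools of a region were of different mice is not in the labels. The p-values therefore refer to the variation among these 12 libraries, part of which may be technical.

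Microglia are the resident macrophages of the brain. They are sorted by the integrin alpha chain CD11b (Itgam), which pairs with the beta chain Itgb2 as a complement receptor, and by the phosphatase CD45 (Ptprc), which acts on Src family kinases and is lower on microglia than on blood leukocytes. TMEM119 is a membrane protein of microglia that most other macrophages lack, and its gene belongs to a set that microglia express at rest, together with secreted proteins, transporters and receptors.

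Of the 10 genes, 7 were matched to promoter sequences from RefSeq (GRCm38.p6), with 2 starts for Ptprc, and Tmem119, Selplg and Gpr34 were not matched. The 250 bases before the start are shown for Itgam and Ptprc, both lowest in cortex 1, and for Olfml3 and Cd81, whose levels correlated positively with those of Tmem119. Capitals mark GAGGAA or its reverse complement TTCCTC, the core bound by the ETS factor PU.1, searched on both strands. The windows lie at chr7:128062390-128062639 on the plus strand for Itgam, chr1:138175306-138175555 on the minus strand for the first start of Ptprc, chr3:103738002-103738251 on the minus strand for Olfml3 and chr7:143052500-143052749 on the plus strand for Cd81. Each is written 5′ to 3′ along its gene.
Itgam: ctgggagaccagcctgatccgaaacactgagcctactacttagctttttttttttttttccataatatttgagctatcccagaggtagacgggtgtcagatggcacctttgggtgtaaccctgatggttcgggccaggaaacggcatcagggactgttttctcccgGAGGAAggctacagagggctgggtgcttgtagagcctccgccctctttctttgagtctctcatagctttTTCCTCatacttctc
Ptprc: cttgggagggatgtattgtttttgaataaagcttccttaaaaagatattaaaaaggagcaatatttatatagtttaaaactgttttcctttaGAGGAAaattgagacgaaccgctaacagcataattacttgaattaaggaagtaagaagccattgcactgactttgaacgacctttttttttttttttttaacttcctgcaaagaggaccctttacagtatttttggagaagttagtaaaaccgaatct
Olfml3: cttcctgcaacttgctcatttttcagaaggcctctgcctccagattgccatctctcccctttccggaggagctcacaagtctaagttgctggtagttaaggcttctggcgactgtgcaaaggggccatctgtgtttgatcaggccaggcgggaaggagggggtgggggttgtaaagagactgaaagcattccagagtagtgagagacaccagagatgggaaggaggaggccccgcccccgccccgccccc
Cd81: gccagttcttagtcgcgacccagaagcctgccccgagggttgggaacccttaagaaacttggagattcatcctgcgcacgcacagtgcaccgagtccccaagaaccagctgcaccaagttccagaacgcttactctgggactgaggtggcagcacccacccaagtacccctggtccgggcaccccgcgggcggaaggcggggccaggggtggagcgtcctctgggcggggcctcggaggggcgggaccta
Itgam held 1 copy on each strand and the first start of Ptprc held 1, whereas Olfml3 and Cd81 held none. Of all 32851 promoters listed, 23.3% held the motif in the 250 bases before the start and 28.3% in the full window of 300 bases. In that full window 3 of the 7 members held it at any start, Itgam, Ptprc and Ltc4s, whereas the shares count single promoters. The second start of Ptprc did not hold it. Ltc4s, whose levels also correlated positively with those of Tmem119, held it in the full window but not in the 250 bases.

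The smallest library was striatum 2, with 6479839 counts in total, and the largest cortex 2, with 14833340. Striatum 2 stood apart from the rest: its correlations of log2 CPM (counts scaled to library size) with the other libraries were 0.748 to 0.771, against at least 0.858 among the other libraries, and 986 of the 10018 genes averaging 50 counts or more were at 0 in it. The members took 1.15% to 1.81% of all counts of a library, and their smallest count was 1172, for Ptprc in striatum 2. Poisson counting alone gives that value an error of 2.92%, a lower limit because the reads carry no molecular identifiers. In bulk libraries, fewer cells that express a gene and less RNA per cell cannot be told apart.

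The gate genes did not pass a test between regions, and they varied widely between libraries of the same region. Tmem119 (chromosome 5, 113793729 to 113800516, minus strand, GRCm38) had 3241, 2043 and 1082 CPM in cerebellum, 2204, 1504 and 1489 in striatum, 2134, 1952 and 1712 in hippocampus, and 2601, 2107 and 1341 in cortex. Cerebellum held both the highest and the lowest library, and all 4 regions overlapped. The order of region means was cerebellum, cortex, hippocampus, striatum, and the log2 difference of cerebellum over striatum was 0.29 (95% interval −0.43 to 1.02; edgeR quasi-likelihood, Benjamini-Hochberg adjusted p = 1.00), turning to −0.15 without cerebellum 1.

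Itgam (chromosome 7, 128062640 to 128118491, plus strand) had 789, 1199.6 and 1353 CPM in cerebellum, 1159, 1311 and 1491 in striatum, 988, 837 and 1221 in hippocampus, and 495, 1138 and 939 in cortex. The lowest striatum library lay just above the highest cortex library, so these groups did not overlap, as was the case for 10.6% of all genes tested. Means were 1320.4 ± 166 CPM in striatum and 857 ± 329 in cortex (SD, n = 3 each), a log2 difference of 0.62 (SE 0.281, 95% interval 0.02 to 1.23). By edgeR's quasi-likelihood test the unadjusted p was 0.0453, a level reached by 683 genes or 5.59% in this comparison, and the adjusted p was 0.80. Over all alternatives the difference ran from 0.34 without cortex 1 to 0.88 without cortex 2, with adjusted p from 0.602 to 1. In order of means, striatum was followed by cerebellum, hippocampus and cortex, and no neighbours in that order differed beyond their spread.

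Ptprc (chromosome 1, 138062861 to 138175708, minus strand) had 239, 335 and 398 CPM in cerebellum, 356, 189 and 436 in striatum, 306, 254 and 375 in hippocampus, and 138, 322 and 442 in cortex. Cortex held both ends of its range, which spanned 3.21-fold. Striatum over cortex, the highest mean over the lowest, gave a log2 difference of 0.12 (95% interval −0.71 to 0.96; edgeR adjusted p = 0.96), and it turned to −0.23 without cortex 1 and −0.14 without striatum 3. The surface proteins by which the cells were gated were not analysed here.

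**Figure D1:**
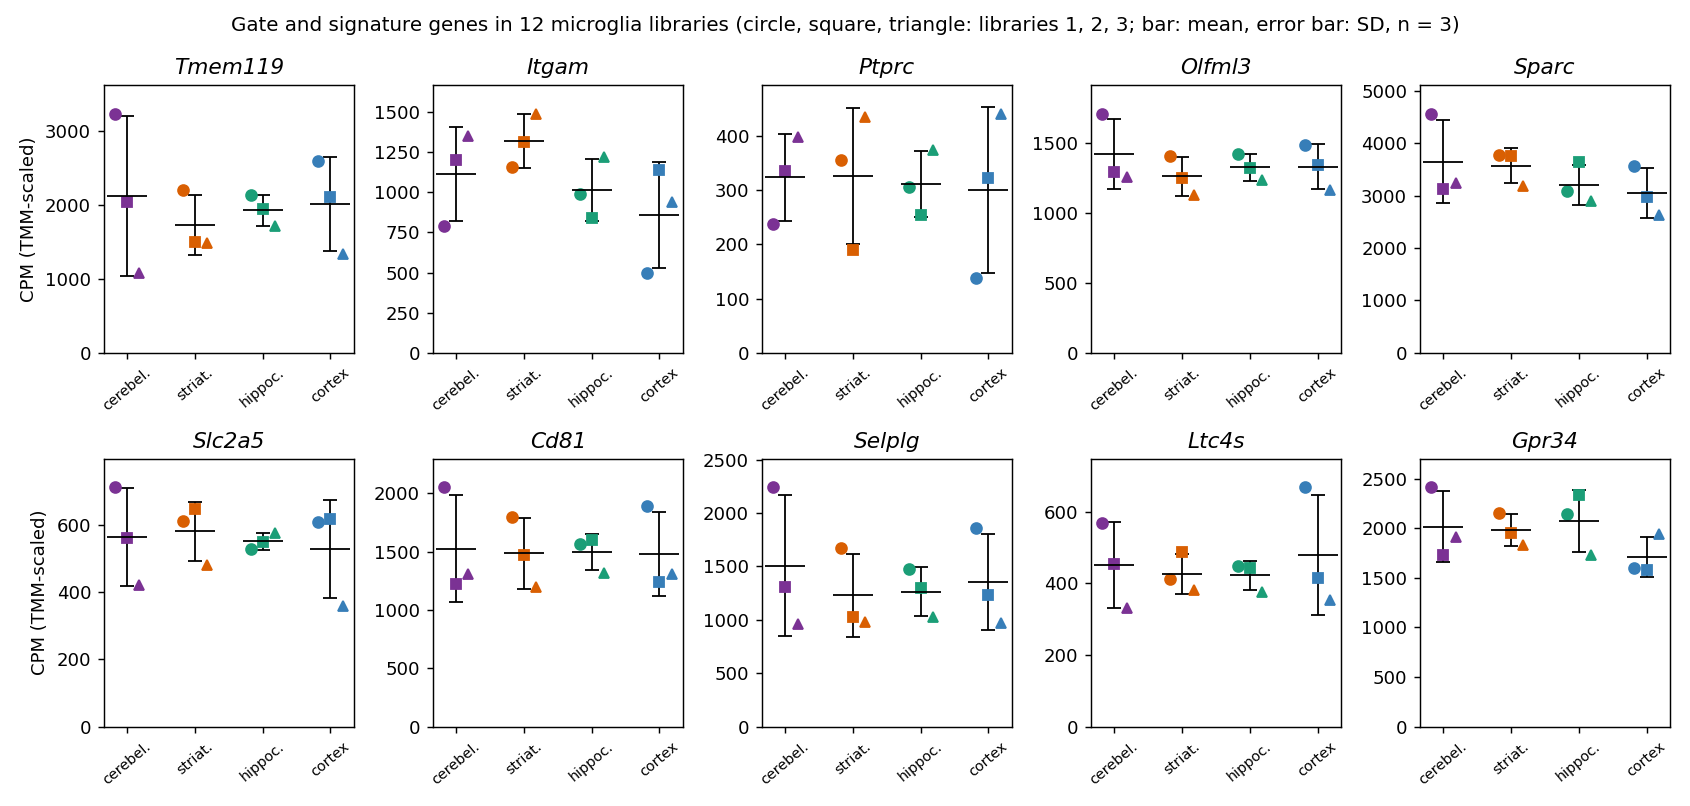
CPM of each of the 10 genes (vertical axes from 0) by region, with a point for each library, the mean as a bar and the SD as an error bar (n = 3). Libraries of the 4 regions overlap in every panel except for striatum against cortex in the panel of Itgam, where striatum lies at 1159 to 1491 CPM and cortex at 495 to 1138.

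Of the secreted proteins, Sparc is a collagen-binding matricellular protein and Olfml3 an olfactomedin family protein that binds BMP ligands. Sparc (chromosome 11, 55394500 to 55423183) had 4566, 3134 and 3243 CPM in cerebellum, 3778, 3752 and 3186 in striatum, 3088, 3634 and 2899 in hippocampus, and 3563, 2976 and 2626 in cortex. Its region means fell in the order cerebellum, striatum, hippocampus, cortex, at 3648 ± 797 CPM in cerebellum and 3055 ± 473 in cortex (SD, n = 3 each). The log2 difference between these was 0.26 (95% interval −0.12 to 0.63; edgeR adjusted p = 1.00), and 0.06 without cerebellum 1. Olfml3 (chromosome 3, 103722222 to 103738001) had 1711, 1297 and 1254 CPM in cerebellum, 1407, 1250.05 and 1129 in striatum, 1425, 1323 and 1235 in hippocampus, and 1488, 1345 and 1164 in cortex. Its range over the 12 libraries was 1.52-fold as measured, and cerebellum 1 was its highest library. With each library's trend on transcript length removed, the range was 2.2-fold. That value rests on an annotated transcript of 5465 bases, which is uncertain because the RefSeq gene span is 2608 bases. Cerebellum over striatum gave a log2 difference of 0.17 (95% interval −0.17 to 0.51; edgeR adjusted p = 1.00), 0.016 without cerebellum 1 and 0.0093 with a GC correction.

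Slc2a5 encodes the fructose transporter GLUT5, Cd81 a tetraspanin that organises membrane partners, and Selplg the selectin ligand PSGL-1. Slc2a5 (chromosome 4, 150119283 to 150144169) was at 422 to 714 CPM in cerebellum, 483 to 649 in striatum, 528 to 577 in hippocampus and 359.7 to 619 in cortex. Cd81 (chromosome 7, 143052739 to 143067934) was at 1223 to 2051 CPM in cerebellum, 1193 to 1799.9 in striatum, 1316.5 to 1602 in hippocampus and 1239 to 1891 in cortex. Its 4 region means lay within 1.03-fold of each other, so libraries within a region carried 99.7% of its variation. Selplg (chromosome 5, 113818536 to 113832644) had 2240.4, 1308 and 964 CPM in cerebellum, 1677, 1029 and 983 in striatum, 1476, 1293 and 1025 in hippocampus, and 1856, 1232 and 973 in cortex. As for Tmem119, the highest and the lowest value both came from cerebellum. The log2 difference was 0.14 for Slc2a5 in striatum over cortex (95% interval −0.37 to 0.64; edgeR adjusted p = 0.92), turning to −0.08 without cortex 3. For Cd81 in cerebellum over cortex it was 0.04 (−0.45 to 0.54), turning to −0.23 without cerebellum 1. For Selplg in cerebellum over striatum it was 0.29 (−0.41 to 0.99), turning to −0.11 without cerebellum 1 (adjusted p = 1.00 for both in edgeR).

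Ltc4s encodes leukotriene C4 synthase, and Gpr34 a receptor for lysophosphatidylserine. Ltc4s (chromosome 11, 50236461 to 50238616) was at 331 to 568 CPM in cerebellum, 381 to 488 in striatum, 376 to 449.8 in hippocampus and 355 to 668 in cortex. Hippocampus over cortex gave a log2 difference of −0.18 (95% interval −0.71 to 0.35; edgeR adjusted p = 1.00), which turned to 0.13 without cortex 1. Gpr34 (chromosome X, 13632089 to 13640858) had 2411, 1727 and 1909 CPM in cerebellum, 2157, 1949 and 1833 in striatum, 2144, 2336 and 1731 in hippocampus, and 1602, 1578 and 1944 in cortex. Hippocampus was its highest region and cortex its lowest, with a log2 difference of 0.28 (95% interval −0.08 to 0.63; edgeR adjusted p = 1.00), 0.18 without hippocampus 2 and 0.12 with a GC correction. The span of Gpr34 overlaps that of Cask on the opposite strand, and Cask was at a mean of 37.4 CPM. The kit does not mark strand, so strand cannot tell reads of the pair apart. Whether their exons overlap was not examined. The span of R74862, at 3.79 CPM, overlaps that of Cd81, also on the opposite strand.

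Across the 4 regions 0 of the 10 members were called by edgeR's quasi-likelihood test, against 0.00% of the 12217 genes. At an unadjusted p under 0.05 the counts were 0 members and 222 genes (1.82%). The 6 pairs of regions likewise had 0 members and 0.00% of genes called. Of the 60 tests of a member in a pair, 1 had an unadjusted p under 0.05, Itgam in striatum over cortex. For the other pairs, with 0 members at that level, the shares of all genes were 1.01% in hippocampus over cortex, 1.55% in cerebellum over cortex, 4.34% in striatum over hippocampus, 1.28% in cerebellum over hippocampus and 2.40% in cerebellum over striatum. In these same pairs, in the same order, 0 members and 6.69%, 6.75%, 11.5%, 7.63% and 6.34% of all genes had libraries that did not overlap. DESeq2 and limma-voom also called 0 members in every comparison, while DESeq2 called up to 13 genes in a comparison. Of the 60 log2 differences, 59 were under 0.5 in size, and the 95% intervals reached 0.34 to 0.83 to either side. The intervals set the limit on differences these 12 libraries could show, and they do not show that the regions are alike.

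For the members, the share of the variation of log2 CPM that lay between libraries of the same region had a median of 94.7%, beside 76.5% over all genes tested and 77.3% over the 2474 genes that averaged 100 CPM or more. Itgam had the lowest share of the members, 63.9%, followed by Gpr34 at 69.4% and Sparc at 74.1%. Within-region SDs of log2 CPM were 0.58 for Ptprc, 0.50 for Tmem119 and 0.46 for Selplg, at percentiles 92.8, 87 and 83.4 of the SD among genes of at least 100 CPM. At the other end, Olfml3 had an SD of 0.18 at percentile 10.3 and Gpr34 one of 0.20 at percentile 14.5. Itgam stood at percentile 74.9 with an SD of 0.41. Within-region SDs are not given with each library's trends on transcript length and GC content removed. The range over the 12 libraries, a different measure of spread, changed with these trends. As measured the range was 3.2-fold for Ptprc, 3.01-fold for Itgam, 2.99-fold for Tmem119, 1.53-fold for Gpr34 and 1.52-fold for Olfml3. With both trends removed, it was 1.95-fold for Ptprc, 2.28-fold for Itgam and 2.55-fold for Tmem119. It was 1.89-fold for Gpr34 and 2.17-fold for Olfml3, where it rests on an uncertain annotated length of 5465 bases.

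Per kb of transcript, levels can be set beside each other between genes. Sparc was first in 12 of 12 libraries, with a mean of 1465 CPM per kb, and Ptprc was last in 12 of 12, at 67.1 CPM per kb. Cd81, Gpr34 and Tmem119 followed Sparc at mean levels of 976, 931 and 870.2 CPM per kb, and their order changed between libraries, since the rank of Tmem119 ran from 2 to 6. Selplg and Ltc4s were next at 721 and 686 CPM per kb, ahead of Itgam at 232 and Slc2a5 at 176 CPM per kb. Olfml3 is uncertain on this scale, since its annotated transcript of 5465 bases is longer than its RefSeq gene span of 2608 bases.

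The same libraries were high or low for several members at once. Cerebellum 1 was the highest library for 7 of the members, including Tmem119, Selplg and Sparc, while Itgam and Ptprc were below their own means there. Cortex 1 had the lowest Itgam and Ptprc and the second highest Tmem119 and Selplg. Cerebellum 3 had the lowest Tmem119, Selplg and Ltc4s, with Itgam and Ptprc above their means.

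**Figure D2:**
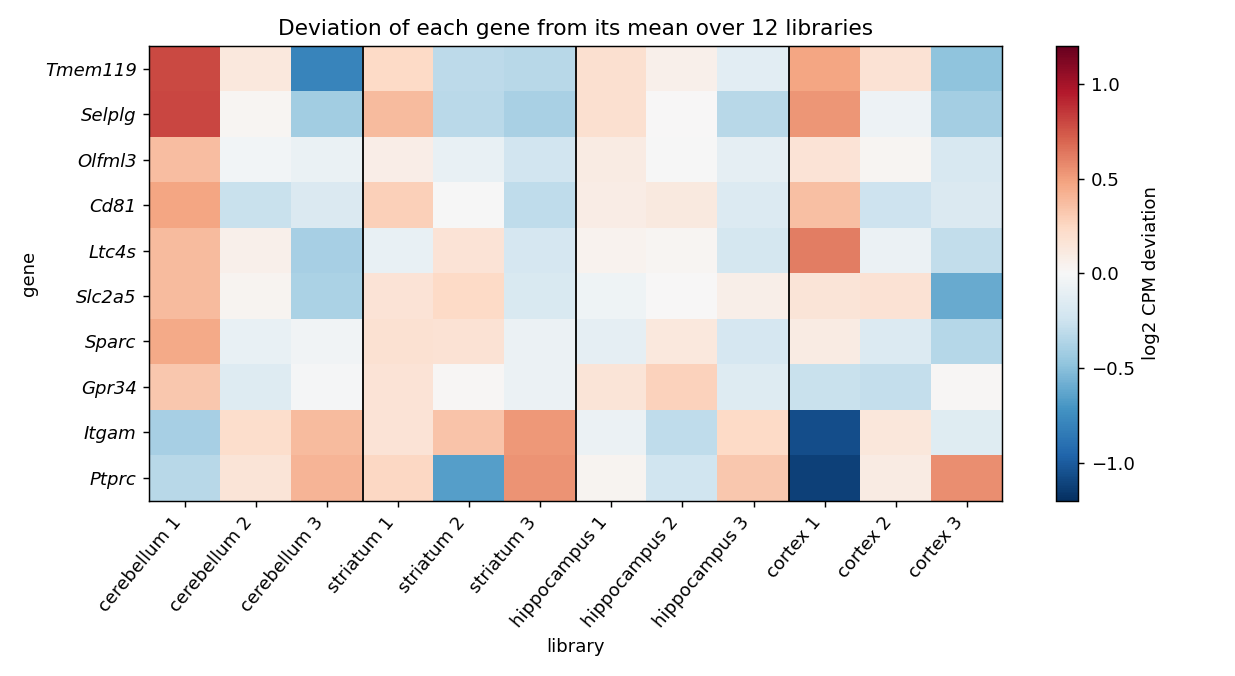
Log2 CPM of each gene minus its own mean over the 12 libraries (colour, red above and blue below), with libraries in columns and black lines between regions. Tmem119 stands at 0.79 in cerebellum 1 and −0.79 in cerebellum 3, whereas Itgam stands at −0.39 and 0.38 in these libraries and at −1.07 in cortex 1.

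Over the 12 libraries, Tmem119 and Selplg had a Pearson r of 0.93 and a Spearman rho of 0.972 (permutation test, p = 1e-05 each, the smallest it can give; adjusted over 45 pairs of members 0.00023 and 0.00045). The r was 0.933 without cerebellum 1 and cerebellum 3, the libraries farthest from the median of Tmem119, and 0.941 after the region means were removed. The ratio of Selplg to Tmem119 CPM stayed within 0.585 to 0.891. These genes lie 18 kb apart on the same strand of chromosome 5. Olfml3 and Selplg were as close, with an r of 0.949 (rho 0.888; permutation p = 1e-05, adjusted 0.00023).

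All 21 pairs among Tmem119, Selplg, Olfml3, Cd81, Ltc4s, Slc2a5 and Sparc had a positive r, from 0.546 to 0.949, and all 14 pairs of Itgam or Ptprc with these 7 had a negative one, from −0.908 to −0.232. These groups were formed after their values were seen and carry no test. Itgam and Ptprc had an r of 0.697 (rho 0.531; permutation p = 0.014 and 0.078, adjusted 0.032 and 0.11). This r changed with the libraries left out. It was 0.182 without cortex 1 and cerebellum 1 but with striatum 2, and 0.902 without striatum 2 alone. For Tmem119 and Itgam r was −0.627 (rho −0.664; permutation p = 0.029 and 0.022, adjusted 0.05 and 0.054), with −0.57 without cerebellum 1 and cerebellum 3. For Ptprc and Ltc4s r was −0.908 (rho −0.909; permutation p = 0.00013 and 0.00016, adjusted 0.002 and 0.0024), with −0.866 without cortex 1 and striatum 2. Before any trend was removed, Gpr34 followed neither group, with r from −0.06 to 0.56 across its 9 pairs.

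**Figure D3:**
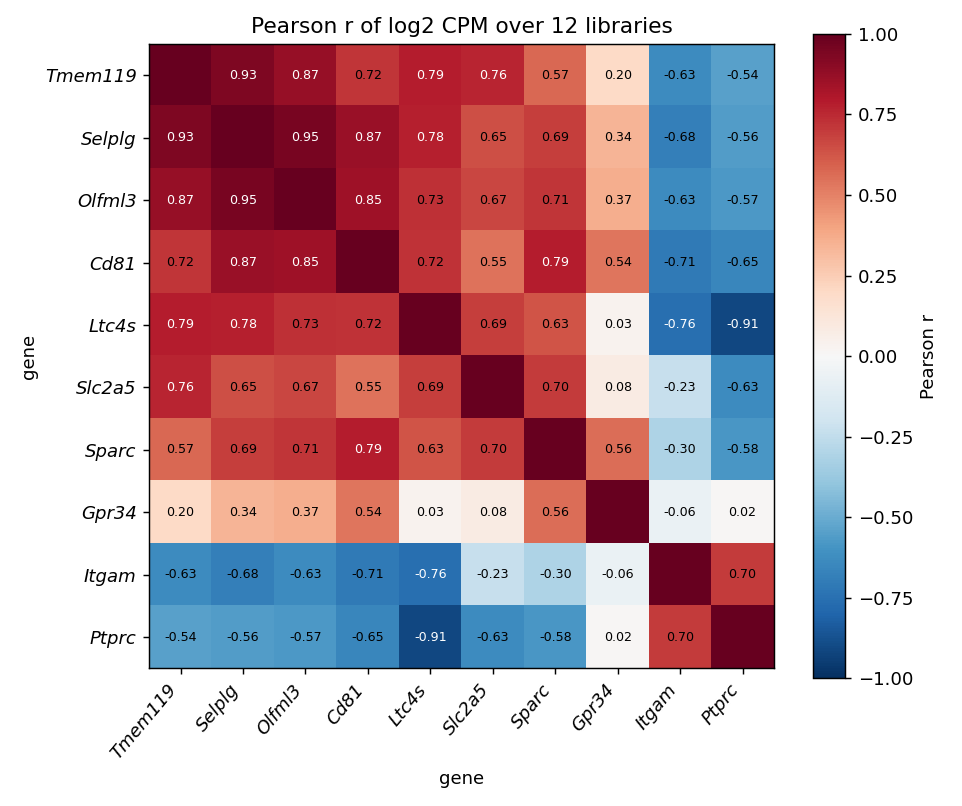
Pearson r of log2 CPM over the 12 libraries for each pair of the 10 genes (colour and printed value). Tmem119, Selplg, Olfml3, Cd81, Ltc4s, Slc2a5 and Sparc form a red block from 0.55 to 0.95, and Itgam and Ptprc are blue against it, from −0.91 to −0.23.

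The libraries also differed in the balance between long and short transcripts, and several members moved with it. The median log2 deviation of transcripts of at least 4429.5 bases minus that of transcripts of at most 1881 bases was −0.60 in cerebellum 1, 0.22 in cerebellum 2, 0.71 in cerebellum 3, −0.50 in hippocampus 2 and −0.94 in cortex 1. The other libraries stood between 0.03 and 0.36. Itgam and Ptprc, with transcripts of 4649 and 4702 bases, had r of 0.904 and 0.784 with this balance. Ltc4s, at 649 bases the shortest member, had −0.876, and Tmem119, Selplg and Cd81, at 2242, 1855 and 1533 bases, −0.774, −0.77 and −0.776. Sparc had −0.56, Slc2a5 −0.499 and Gpr34 −0.211. Olfml3 had −0.691, against the direction of its annotated length of 5465 bases, which is uncertain. When each library's trend on transcript length was removed, a step chosen after seeing the data, the 21 pairs kept a positive r with a median of 0.691, against 0.72 before, but the lowest was 0.206, against 0.546. Among them Tmem119 with Ltc4s was 0.357 and Tmem119 with Cd81 0.379. Without the 6 pairs of Olfml3, whose removed trend rests on its uncertain length, the lowest of 15 was 0.357. All 7 pairs of Ptprc stayed negative, with a median of −0.538. Of the 7 pairs of Itgam, 4 turned positive, with Sparc, Slc2a5, Cd81 and Ltc4s. The r of Tmem119 with Itgam was then −0.238 and with Ptprc −0.557, and that of Tmem119 with Selplg was 0.886. For Ptprc with Ltc4s it was −0.443, and for Itgam with Ptprc 0.314. With GC content removed as well, the 21 pairs ran from 0.158 to 0.881 and Ptprc with Ltc4s was −0.364. Gpr34 then had r of 0.882 with Sparc, 0.814 with Ltc4s, 0.788 with Cd81, 0.666 with Itgam and 0.462 with Slc2a5. Its r with Selplg, Olfml3, Tmem119 and Ptprc was 0.251, 0.127, 0.0909 and −0.227.

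In all 4 regions the library numbered 1 had the highest and that numbered 3 the lowest Tmem119, Selplg and Olfml3, so the 12 libraries may not be independent, and the permutation p-values treat them as independent. When the means of the numbers were removed together with those of the regions, a step chosen after seeing the data, the 21 pairs kept a positive r from 0.139 to 0.908, with a median of 0.526. Tmem119 with Selplg was then 0.88, Ptprc with Ltc4s −0.86 and Itgam with Ptprc 0.737. Tmem119 with Itgam was −0.185 and with Ptprc 0.014, against −0.679 and −0.549 with the region means alone removed.

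The ratio of Tmem119 to Itgam CPM was 4.11, 1.70 and 0.80 in cerebellum, 1.90, 1.15 and 1.00 in striatum, 2.16, 2.33 and 1.40 in hippocampus, and 5.25, 1.85 and 1.43 in cortex. It thus differed 5.13-fold within cerebellum and 3.68-fold within cortex, 1.9-fold within striatum and 1.66-fold within hippocampus. Over the 12 libraries it spanned 6.57-fold, and 2.91-fold without cortex 1 and cerebellum 1. With the length trend removed the span over 12 libraries was 3.4-fold, and with length and GC removed 3.11-fold. Itgam and Ptprc held a steadier ratio, 3.23 to 3.60 in 10 libraries, with 6.92 in striatum 2 and 2.13 in cortex 3.

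**Figure D4:**
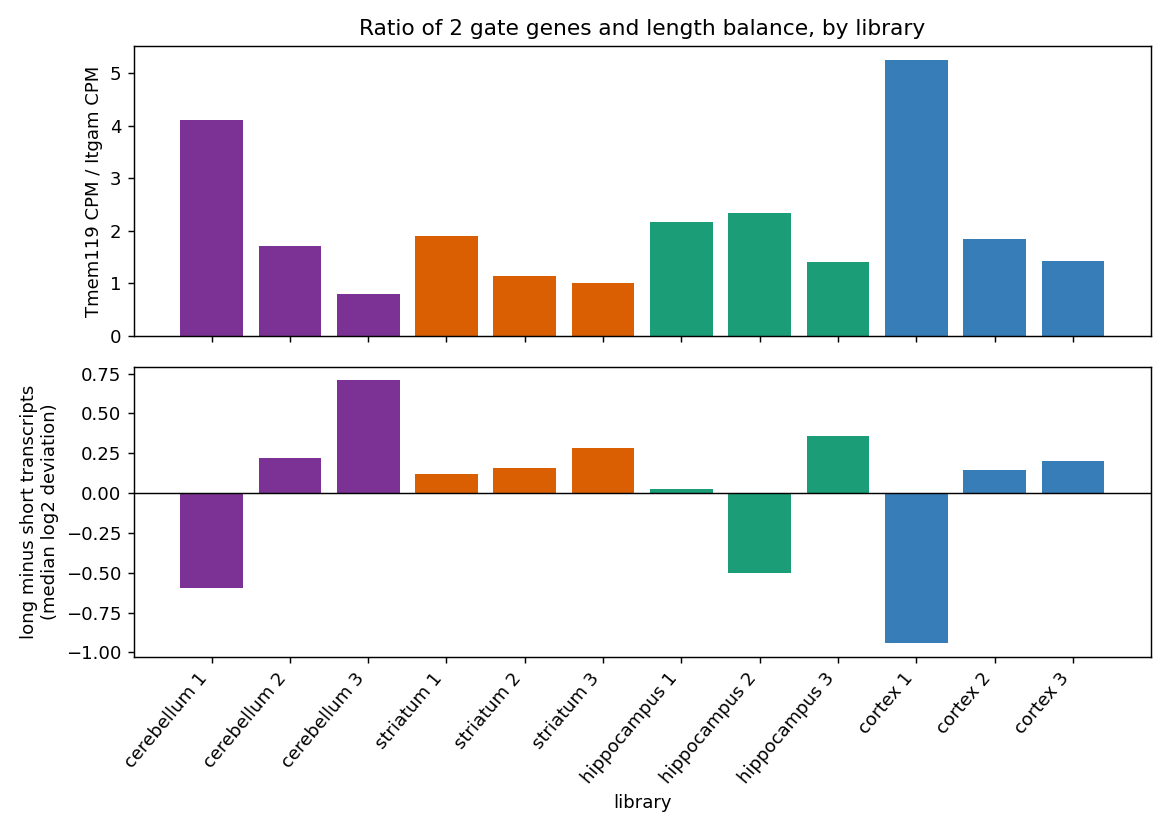
Ratio of Tmem119 CPM to Itgam CPM by library (upper bars) and the median log2 deviation of long minus short transcripts in the same library (lower bars). The ratio is 4.11 in cerebellum 1 and 5.25 in cortex 1, where the lower bars stand at −0.60 and −0.94, and 0.80 in cerebellum 3, where the lower bar stands at 0.71.

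For each member, the gene with the most similar profile among 9056 genes that averaged 10 CPM or more was found by Pearson r of log2 CPM over the 12 libraries, as a description. Tmem119 was closest to Alox5ap, the partner protein of 5-lipoxygenase (r = 0.953), and Selplg, its neighbour on the chromosome, ranked 4 for it. Itgam was closest to Nckap1l, a haematopoietic subunit of the WAVE complex (0.983), and Ptprc to Mcm3ap, an mRNA export scaffold (0.967). Sparc was closest to Siglech, a sialic acid binding lectin of microglia (0.925), Slc2a5 to Igfbp4, a binding protein of insulin-like growth factors (0.906), and Cd81 to Rgs2, a regulator of G protein signalling (0.936). Olfml3 was closest to Selplg (0.949), Selplg to Tmem176b (0.954), Ltc4s to Ccdc107 (0.955), and Gpr34 to Ndfip1, an adaptor of NEDD4 family ubiquitin ligases (0.94). 

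Partners of the members were read from 8 lists with 76 genes. Among integrins, the beta chain of CD11b, Itgb2, had a mean of 391 CPM over the 12 libraries, Itgb5 2088, Itgb1 1001 and Itga6 419.8. Per kb of transcript, the mean of Itgb2 was 132 CPM beside 232 for Itgam. Around CD45, the phosphatase Ptpn6 had 792 CPM and the Src family kinases Lyn and Fyn 729 and 129. The tetraspanins Cd53, Cd9, Cd63 and Cd37 stood at 1045, 576, 468 and 424 CPM. All of these partners were detected in every library. Of the sugar genes, the transporter Slc2a8 had 199.5 CPM, the sorbitol dehydrogenase Sord 85.8, the fructokinase Khk 75.7 and the glucose transporter Slc2a1 45.3.

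For the selectin ligand, the glycosyltransferases St3gal6, Gcnt1, B4galt1 and St3gal4 had 230.2, 162.5, 120.4 and 13.4 CPM. In the leukotriene pathway, Alox5ap stood at 167 CPM, the phospholipase Pla2g4a at 125, the hydrolase Lta4h at 112 and the receptor Cysltr1 at 80.4. Of the lysophosphatidylserine genes, the lipase Abhd12 had 1342 CPM and the hydrolase Abhd16a 162, while the receptors P2ry10 and Gpr174 were at 0 in every library. Among relatives of Sparc and Olfml3, Olfml2b had 74.7 CPM and Bmp1 68.6, with Sparcl1 at 3.57 and Olfm1 at 1.18. None of the partner genes passed a test between regions by edgeR, DESeq2 or limma-voom. Over the 4 regions 0 had an unadjusted p under 0.05 by edgeR, beside 1.82% of all genes. At that level the integrins had 1 gene each in striatum over cortex, cerebellum over cortex and striatum over hippocampus. The leukotriene list had 1 in cerebellum over cortex, and the relatives of Sparc and Olfml3 had 1 in striatum over hippocampus. The shares of all genes in these 3 pairs were 5.59%, 1.55% and 4.34%.

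The other genes of the microglia signature were abundant in every library, and Csf1r, P2ry12 and Fcrls had means of 8238, 4806 and 3688 CPM. The summed level of the 20 genes was 38300 to 47800 CPM in cerebellum, 39800 to 46100 in striatum, 38300 to 42200 in hippocampus and 35300 to 37600 in cortex. None was called. By edgeR, Csf1r alone had an unadjusted p under 0.05 over the 4 regions, while 5 of the 20 did in striatum over cortex, beside 5.59% of all genes, and 3 in cerebellum over cortex, beside 1.55%. Of the 20 genes, 12 had a positive r with Tmem119 and 10 with Itgam, and for 18 of them the signs were opposite. Sall1, a transcription factor of microglia, had r of −0.689 with Tmem119 and 0.917 with Itgam, and the efferocytosis receptor Mertk −0.804 and 0.884. Sfpi1, the gene of PU.1, had 0.714 with Tmem119 and −0.848 with Itgam, and the crystallin gene Crybb1 0.703 and −0.63. The 10 genes with a positive r with Itgam had a median transcript length of 3959 bases and the other 10 one of 2086 bases, a description with no test. Mef2c, at 2589 bases and an r of 0.872 with Itgam, and Cx3cr1, at 4493 bases and −0.288, went the other way.

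Markers of other cells of the brain were read from 8 lists. The 11 markers of border-associated macrophages, cells that share CD11b and CD45 with microglia, summed to 663 to 1650 CPM in cerebellum, 909 to 2220 in striatum, 756 to 1290 in hippocampus and 682 to 1600 in cortex. Most of this was Stab1, at 355 to 1452 CPM, and Mrc1, at 229 to 712. F13a1 and Folr2 averaged 19.1 and 14.2 CPM and Cbr2 9.36, all above 0 in every library. Pf4, Lyve1, Cd163, Siglec1, Ms4a7 and Clec12a averaged 9.14, 7.35, 5.23, 3.13, 2.4 and 0.53 CPM and were each at 0 in at least 1 library. The log2 of this sum had an r of −0.808 with Tmem119 (rho −0.776; permutation p = 0.0016 and 0.0041, adjusted over the 10 members 0.0095 and 0.022), of −0.80 with Selplg (rho −0.776; permutation p = 0.0019 and 0.0044, adjusted 0.0095 and 0.022) and of 0.652 with Itgam (rho 0.643; permutation p = 0.018 and 0.027, adjusted 0.045 and 0.068). With Ptprc the r was 0.349 (rho 0.427; permutation p = 0.27 and 0.17, adjusted 0.3 and 0.19), and 0.787 without striatum 2. Without the 2 libraries farthest from the median of the sum, the r with Tmem119, Selplg, Itgam and Ptprc was −0.801, −0.772, 0.609 and 0.779. With the means of regions and library numbers removed it was −0.704, −0.868, 0.482 and −0.005. The sum itself had an r of 0.755 with the balance of long and short transcripts, and Stab1 and Mrc1 have transcripts of 7999 and 5374 bases. The part of these cells in the levels of Tmem119 and Itgam was not tested.

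**Figure D5:**
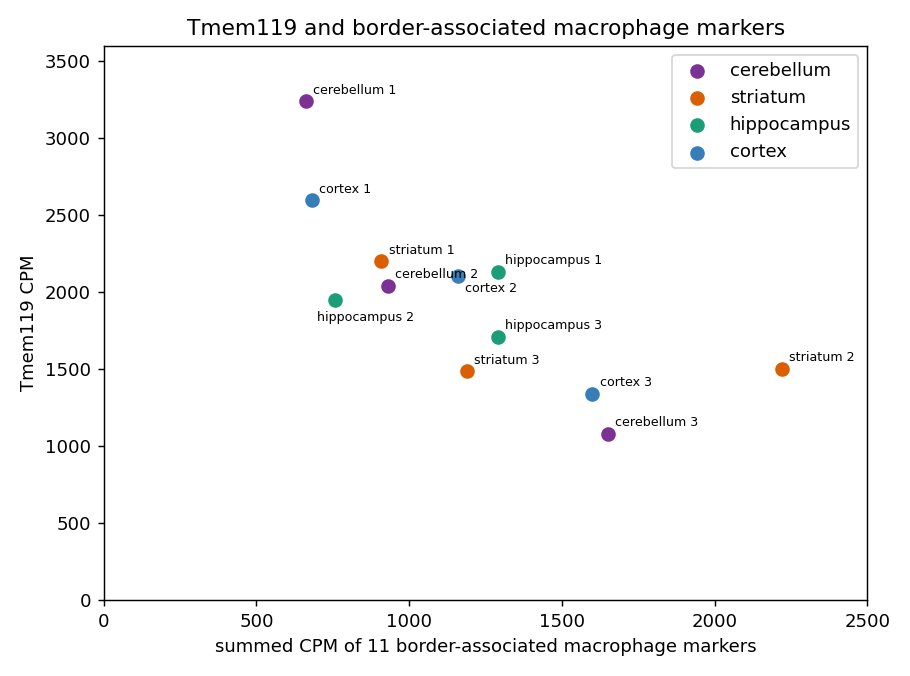
Tmem119 CPM against the summed CPM of 11 markers of border-associated macrophages, with a point for each library, coloured by region. Tmem119 is highest where the sum is lowest, at 3241 CPM and 663 CPM in cerebellum 1, and striatum 2 has the highest sum, 2220 CPM, with Tmem119 at 1504 CPM.

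Endothelial and mural cells also express Sparc. Their markers summed to 0.97 to 46.4 CPM, most of it Pecam1, and their part in the level of Sparc was not tested. Astrocyte markers summed to 108 to 242 CPM, most of it S1pr1 and Slc1a3, with Gfap at a mean of 5.48 CPM and Gjb6 at 0 in every library. Oligodendrocyte markers summed to 100 to 200 CPM, most of it Cnp, with Mal at 0 throughout. Neuronal markers summed to 6.58 to 41.9 CPM, and those of monocytes and neutrophils to 0.162 to 17.3 CPM, with Ly6c2 at 0 throughout. Lymphocyte markers summed to 92.5 to 247 CPM, most of it Cd79b, with Cd3e, Cd3d, Ms4a1 and Gzma at 0 in every library. Choroid plexus and ependymal markers ran from 0.105 CPM in hippocampus 1 to 835 CPM in striatum 2, where Ttr alone stood at 579.8 CPM. By edgeR none of the 121 tested genes of all lists was called in any comparison. Over the 4 regions 3 had an unadjusted p under 0.05 by edgeR, Csf1r and Kl among them, beside 1.82% of all genes. DESeq2 called 1 of the 121 in striatum over cortex and 1 in cerebellum over cortex, beside 13 and 7 of all genes tested.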

How the data were processed

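The deposited table holds raw read counts per gene symbol for 12 libraries, with no normalization by the authors. The submitters' processing notes name HTSeq, Picard, STAR 2.5.3a, Trim Galore 0.4.3 and mm10. The step each tool ran, its settings, the gene annotation and any strand mode of counting were not given in the sources used here. Per the labels' protocols, Smart-Seq v4 cDNA (9 cycles) went into Nextera XT libraries (13 cycles). The kit does not mark strand, and reads carry no molecular identifiers, so counting errors are lower limits.

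Counts were fitted in R 4.3.3 with edgeR 4.0.16 (filterByExpr by region, minimum count 10 and minimum total count 15; TMM; robust quasi-likelihood over all 12 libraries; Benjamini-Hochberg over 12217 genes; threshold 0.05). CPM values are TMM-scaled, and log2 CPM has a prior count of 2. DESeq2 1.42.0, limma-voom (limma 3.58.1), other scalings, no filter, a replicate block, leaving out each library, and corrections for transcript length and GC content were alternatives. Lengths come from the longest principal transcript of GENCODE M21 (GRCm38), found for 10998 genes, 90% of those tested. Permutation tests drew 100000 resamples and were two-sided. Same-numbered libraries of cerebellum and cortex deviated together in all 3 pairs (r 0.101 to 0.287 over genes). Those of hippocampus and striatum had a smaller positive r, 0.0137 to 0.0733, and every other pair of regions included a negative r. Same-region libraries differed far beyond sampling noise (chi-square per degree of freedom 32.5 to 93.3). The genes named besides the members were, by rule, each member's closest profile and up to 4 genes of the highest mean from each list; others were chosen after their values were seen, and the results of a few listed genes are not reported here. The members and lists were chosen with earlier results of these data known.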

Additional observations from a re-analysis of the deposited data

How the results depend on the processing

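Members called stayed at 0 in the 7 comparisons under all 20 alternatives, and the adjusted p of each member over the 4 regions stayed at 0.993 to 1. Counts at an unadjusted p under 0.05 by edgeR did move. With the length correction they were 3 members and 970 genes in striatum over cortex, against 1 and 683 in the main fit. Over the 4 regions they were 1 and 382, against 0 and 222, and in striatum over hippocampus 1 and 864, against 0 and 530. In striatum over cortex the members were 0 with total counts only and without striatum 2, among other alternatives. Of 200 log2 differences of a member under an alternative, 189 kept their direction and 11 changed sign; none crossed the threshold. With total counts only, the log2 difference of Cd81 in cerebellum over cortex was -0.01454, and with the length correction that of Ltc4s in hippocampus over cortex was 0.05967; the cause was not tested. Leaving out 1 library at a time gave ranges of -0.2291 to 0.256 for Cd81, -0.3565 to 0.1343 for Ltc4s, -0.2258 to 0.5076 for Ptprc in striatum over cortex, -0.1142 to 0.582 for Selplg in cerebellum over striatum, -0.07933 to 0.2608 for Slc2a5 in striatum over cortex and -0.1484 to 0.6106 for Tmem119 in cerebellum over striatum. DESeq2 called 5 genes over the 4 regions, 5 in hippocampus over cortex, 13 in striatum over cortex, 7 in cerebellum over cortex, 2 in cerebellum over hippocampus and 3 in cerebellum over striatum, where edgeR called 0. With the replicate number as a block, 0 members and 0 genes were called, and the log2 difference of Itgam in striatum over cortex was 0.67. Over all regions, same-number correlations were -0.12 to 0.287, with 4 of 18 over 0.1, 3 of them between cerebellum and cortex, and 9 of 12 libraries matched best with a library of their own number. The block changed no call, cerebellum over cortex included. The smallest count of a member was 1172. Whether depth or the number of libraries limits the calls was not tested.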
